A study of Mus musculus with 12 samples.

Results

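The Paf1 complex (Paf1C) genes of the mouse, Ctr9, Paf1, Leo1, Cdc73, Rtf1 and Wdr61, were followed through RNA-seq and ChIP-seq data of NIH3T3 cells and embryonic stem cells (mESCs). The genes were found by symbol in the 2 RNA-seq tables. They are 6 of 21905 protein-coding genes and account for 39 of the 137767 transcripts in each table. mESCs were of the E14 line, pluripotent cells of the early embryo, and NIH3T3 is an established line of mouse fibroblasts; both were grown with serum and leukaemia inhibitory factor. The RNA-seq groups were mESCs and NIH3T3 cells, with 1 library each. The ChIP-seq groups were Ctr9, H3K27ac, NELFA, RNAPII Ser5p and RNAPII Ser2p in mESCs, and Ctr9 and H3K27ac in NIH3T3 cells, again with 1 library each. Ctr9 was pulled down through a GFP tag that had been placed at the 3′ end of the Ctr9 gene in both lines. The tagged cells had been sorted by their GFP signal and were used uncloned. NELFA was pulled down through GFP in a separate tagged mESC line, which also gave the Ser5p library. Whether the H3K27ac, Ser2p and RNA libraries came from tagged or from parental cells was not given in the sources used here. No group has a replicate, so no difference was tested against replicate spread, and every interval below covers counting error only.

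Paf1C travels with RNA polymerase II (RNAPII) through the body of genes. It takes part in the control of pausing near promoters, where both a holding and a releasing role have been proposed, and it is needed for ubiquitination of histone H2B and for the histone methylations that depend on it. Ctr9 is the scaffold of the complex, Paf1 and Leo1 form a dimer on it, and Cdc73 is the tumour suppressor parafibromin. Rtf1 stimulates H2B ubiquitination and is held less firmly in the animal complex, and Wdr61 is also a subunit of the cytoplasmic Ski complex, which feeds RNA to the exosome. In mESCs the complex is known to help maintain pluripotency.

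The libraries carried the markers of their cell types. Pou5f1, a core pluripotency factor, stood at 1402 TPM (a level per transcript, corrected for its length and for library size) in mESCs and was listed at 0 in NIH3T3 cells. All 5 stem cell markers (Pou5f1, Nanog, Sox2, Zfp42 and Esrrb) had at least 211 TPM in mESCs and at most 0.511 TPM in NIH3T3 cells. The collagen genes Col1a1 and Col1a2 stood at 0.203 and 0.132 TPM in mESCs and at 901 and 1082 TPM in NIH3T3 cells. Among the other fibroblast markers, Col3a1 was listed at 0 in mESCs and at 67.9 TPM in NIH3T3 cells, Thy1 had 5.69 and 168 TPM, and Twist1 had 2.26 and 24.2 TPM. The RNA tables held 26400407 estimated counts in mESCs and 28849497 in NIH3T3 cells.

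All 6 Paf1C genes were expressed in both cell types. Following the authors, the level of a gene was the TPM of its most abundant transcript. By this measure the highest and the lowest member differed 2.16 times in mESCs and 1.88 times in NIH3T3 cells. With the most abundant coding transcript of each gene the ratio was 7.46 and 6.62, and with TPM summed over transcripts it was 3.05 and 2.80. The median level of the 6 genes was 45.8 TPM in mESCs and 31.4 TPM in NIH3T3 cells. Genes were also divided by level, and the top 25% of the protein-coding genes above 0 TPM formed the top class, which began at 21.6 TPM in mESCs and 23.5 TPM in NIH3T3 cells. The 6 genes were all in the top class in mESCs, and 5 were in NIH3T3 cells, where Ctr9 lay below its limit. The coding transcript of Cdc73 alone, with 8.39 TPM in mESCs and 5.34 TPM in NIH3T3 cells, lay below both limits.

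Leo1 (chr9:75441524-75466432, plus strand, mm10) had the highest level in mESCs. It stood at 62.6 TPM in mESCs (95% exact Poisson interval of its 2159 estimated counts, 60.0 to 65.3) and at 26.2 TPM in NIH3T3 cells (24.6 to 27.9). Wdr61 (chr9:54714735-54734519, minus strand) had 60.5 TPM in mESCs (57.3 to 63.9) and 35.4 TPM in NIH3T3 cells (33.0 to 37.9). The intervals of Leo1 and Wdr61 overlapped in mESCs and were apart in NIH3T3 cells, so only in the latter did they differ beyond counting error. Replicate spread and the division of reads between Wdr61 transcripts that share exons are not covered by these intervals. With TPM summed over transcripts, Wdr61 (90.5 TPM) was the highest in mESCs, followed by Cdc73 (87.7 TPM), Paf1 (83.2 TPM) and Leo1 (63.2 TPM).

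Cdc73 (chr1:143598800-143702893, minus strand) had 54.0 TPM in mESCs (50.3 to 57.8) and 36.7 TPM in NIH3T3 cells (33.8 to 39.8). Paf1 (chr7:28392951-28399388, plus strand) had 37.7 TPM in mESCs (32.2 to 44.1) and 31.1 TPM in NIH3T3 cells (29.3 to 32.9). Both values of Cdc73, and that of Paf1 in mESCs, belonged to transcripts annotated as non-coding, which are described below.

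Rtf1 (chr2:119675068-119735407, plus strand) had 34.4 TPM in mESCs (33.1 to 35.6) and 31.8 TPM in NIH3T3 cells (30.6 to 32.9). Ctr9 (chr7:111028951-111056377, plus strand), the scaffold, had the lowest level of the 6 genes in both libraries. It stood at 29.0 TPM in mESCs (27.8 to 30.2) and 19.5 TPM in NIH3T3 cells (18.6 to 20.5). The neighbours Paf1 and Rtf1 had overlapping intervals in both libraries. The intervals of Cdc73 and Wdr61 overlapped in both as well. By this measure Ctr9 lay below all other members beyond counting error in mESCs and in NIH3T3 cells.

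The 6 genes fell into a group with nearly all RNA in 1 coding transcript and a group with the RNA spread over several. Coding transcripts Ctr9-201, Leo1-201 and Rtf1-201 held 97.8%, 99.1% and 99.8% of their gene's TPM in mESCs, and 93.1%, 98.3% and 96.7% in NIH3T3 cells. At Wdr61 the RNA was divided over coding transcripts, with 66.9% of the TPM in Wdr61-203, 24.9% in Wdr61-205 and 6.57% in Wdr61-204 in mESCs. The corresponding shares in NIH3T3 cells were 62.0%, 24.3% and 10.6%, the same order in both libraries. Of the 39 transcripts, 24 had a TPM above 0 in mESCs and 27 in NIH3T3 cells.

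Cdc73 was the member whose level depended most on which transcript was taken. Its full-length coding transcript Cdc73-201, 11586 nt long, had 8.39 TPM in mESCs (7.99 to 8.81) and 5.34 TPM in NIH3T3 cells (5.04 to 5.66). The processed transcript Cdc73-206, of 1047 nt, had 54.0 and 36.7 TPM. A further processed transcript, Cdc73-203 of 3134 nt, had 25.2 and 13.9 TPM. Together the non-coding transcripts held 90.4% of the gene's TPM in mESCs and 90.5% in NIH3T3 cells. By estimated counts, which are not corrected for length, their share was 56.1% and 54.5%. Cdc73-206 and Cdc73-203 share 92.8% and 95.2% of their exon bases with the coding transcript, so the division of reads between them is an estimate of the quantification program. With coding transcripts only, Cdc73 was the lowest of the 6 genes in both libraries, whereas by the most abundant transcript it had the highest level in NIH3T3 cells.

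At Paf1 the most abundant transcript in mESCs was a short one, but the level hardly depended on the choice between it and the coding transcript. Paf1-208 is a retained-intron transcript of 446 nt, of whose bases 96.9% lie in exons of the coding transcript Paf1-201. In mESCs it was given 37.7 TPM from 163 estimated counts, and Paf1-201 was given 36.8 TPM (34.8 to 38.8) from 1284 counts. The intervals of these 2 transcripts overlapped, so which was the more abundant could not be told. Because most bases of Paf1-208 are shared, the division of reads between them is also an estimate of the quantification program. The intervals do not cover the error of that division. In NIH3T3 cells Paf1-208 had 19.3 TPM and Paf1-201 had 31.1 TPM. Retained-intron transcripts held 55.8% of the Paf1 TPM in mESCs and 46.9% in NIH3T3 cells, but 18.9% and 13.8% of its estimated counts.

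**Figure D1:**
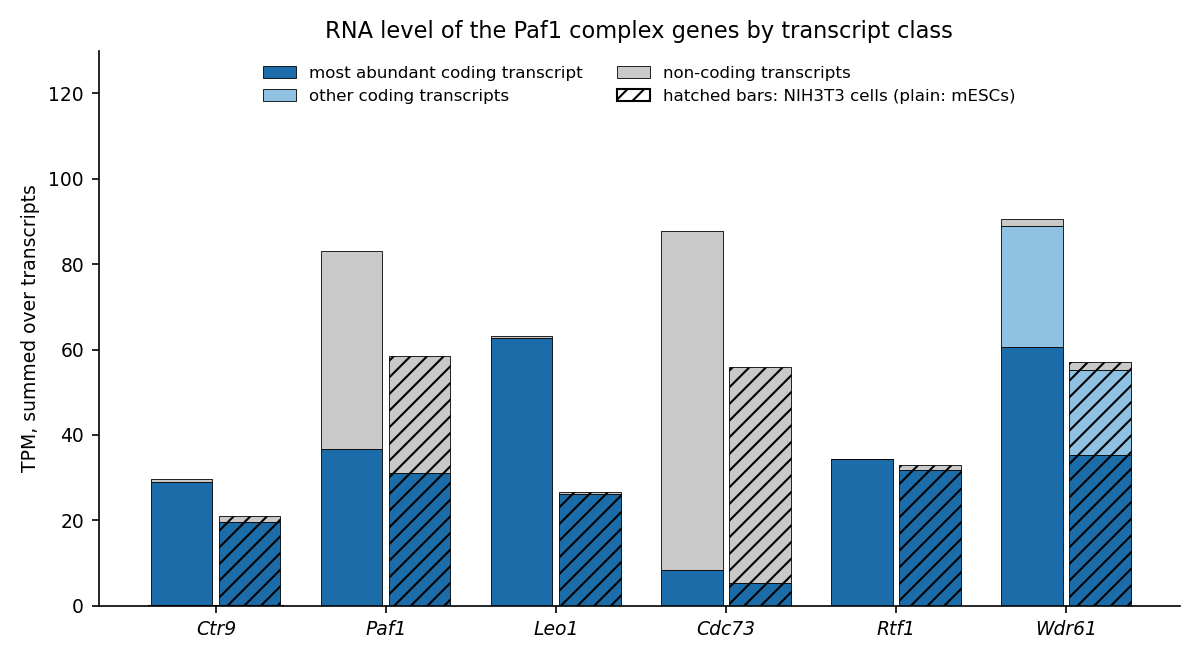
TPM of each Paf1C gene, summed over its transcripts, in mESCs (plain bars) and NIH3T3 cells (hatched bars), 1 library each, divided into the most abundant coding transcript in mESCs (dark blue), other coding transcripts (light blue) and non-coding transcripts (grey). Non-coding transcripts make up 90.4% of the Cdc73 bar and 55.8% of the Paf1 bar in mESCs, and other coding transcripts are visible only for Wdr61.

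Leo1 differed most between the cell types. On the scale of log2((TPM + 1) in mESCs over (TPM + 1) in NIH3T3 cells), Leo1 stood at 1.23, and it was the only member with a difference of at least 2-fold. Among the 12379 protein-coding genes with at least 1 TPM in either library, 23.8% were at least 2-fold higher in mESCs (13.5% without this filter) and 20.0% at least 2-fold higher in NIH3T3 cells. For genes in the top class of both libraries, the share at least 2-fold higher in mESCs was 9.38%. With 6 genes, 1 past 2-fold cannot be set apart from either share.

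All 6 members had a higher TPM in mESCs, where 54.4% of all genes and 56.4% of those in the top class of both libraries did, except that Rtf1 fell to -0.02 once the median log2 ratio of all genes, 0.13, was set to 0. The log2 ratios were 0.76 for Wdr61, 0.55 for Ctr9, 0.54 for Cdc73, 0.27 for Paf1 and 0.11 for Rtf1. The value of Paf1 sets Paf1-208 in mESCs against Paf1-201 in NIH3T3 cells; it was 0.24 for Paf1-201 in both and 0.50 with transcripts summed. The median of the 6 was 0.55, against 0.13 over all genes past the filter and 0.11 over genes in the top class of both libraries. The ratios of the coding transcripts, with counting intervals, were 2.39 for Leo1 (2.22 to 2.58), 1.71 for Wdr61 (1.57 to 1.87) and 1.57 for Cdc73 (1.46 to 1.69). The ratio was 1.49 for Ctr9 (1.40 to 1.59), 1.18 for Paf1 (1.09 to 1.28) and 1.08 for Rtf1 (1.03 to 1.14). The interval of Leo1 lay above those of the other 5 members, and the Rtf1 interval lay closest to 1. In bulk RNA, less RNA per cell and fewer expressing cells cannot be told apart.

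**Figure D2:**
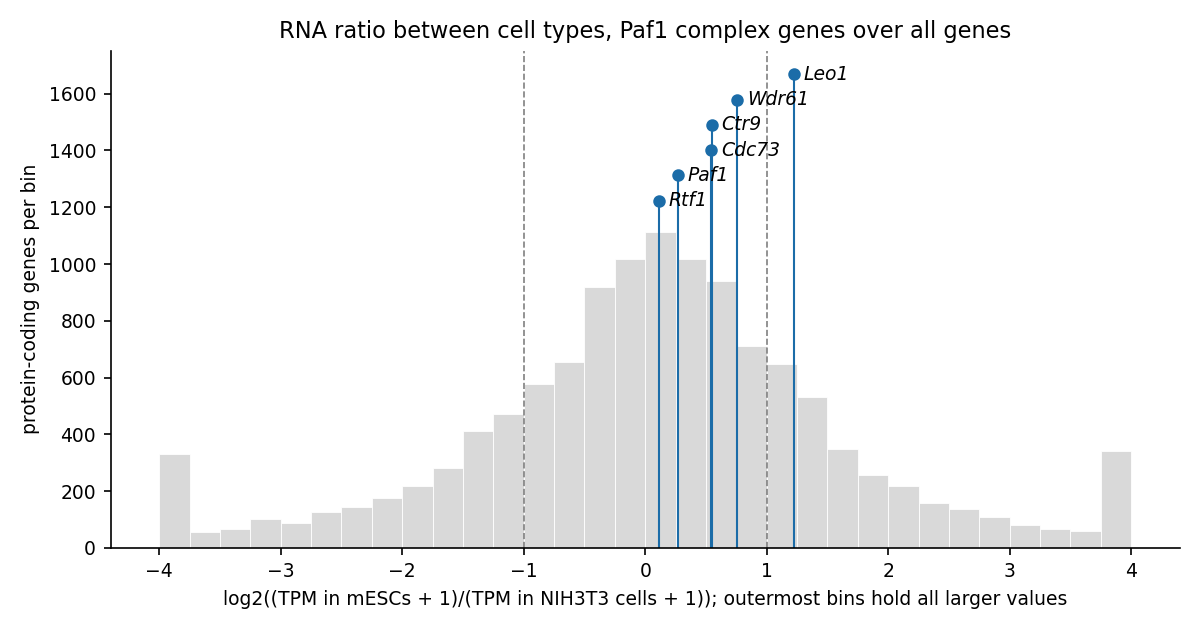
Number of protein-coding genes (grey bars) by log2 ratio of TPM + 1 in mESCs over NIH3T3 cells, with the 6 Paf1C genes as blue lines whose heights are set only to separate the names. Dashed lines mark 2-fold; Leo1 at 1.23 lies past it, and the other members lie between 0.11 and 0.76.

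For each member the protein-coding gene with the most similar pair of levels was found, as the smallest Euclidean distance over log2(TPM + 1) in the 2 libraries. This was Fdx1l for Ctr9 (28.9 and 19.3 TPM), Smim15 for Paf1 (38.4 and 31.2 TPM) and Trmt1 for Leo1 (62.1 and 25.5 TPM). It was Ubqln1 for Cdc73 (55.0 and 36.3 TPM), Wdr6 for Rtf1 (34.4 and 31.9 TPM) and Gatad2a for Wdr61 (61.8 and 35.5 TPM). With only 2 libraries, such a match says no more than that the 2 levels are close.

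The genes that work with Paf1C were described from 4 lists. Of 25 elongation factors, 4 were at least 2-fold higher in mESCs and 2 at least 2-fold higher in NIH3T3 cells, and the median log2 ratio was 0.58. Over all genes the shares were 23.8% and 20.0%, and the share higher in mESCs was 9.38% in the top class of both libraries. The count of 4 lies between these shares, and the genes past 2-fold are named for their values only. With TPM summed over transcripts, the count in mESCs was 3. Supt16, a subunit of the histone chaperone FACT and the most abundant of the list in mESCs, had 180 TPM there (log2 ratio 1.42). Hexim1, an inhibitor of P-TEFb, had 58.1 TPM in mESCs and 15.1 TPM in NIH3T3 cells. Cdk12, a kinase of RNAPII Ser2, had 20.3 and 8.28 TPM, and the NELF subunit gene Nelfa had 35.8 and 16.3 TPM. The 2 genes higher in NIH3T3 cells, Mllt3 with 1.74 and 20.7 TPM and Mllt1 with 10.1 and 30.1 TPM, encode the related YEATS-domain proteins AF9 and ENL, and Mllt3 was also the lowest of the list in mESCs.

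Of 14 histone modification partners, 3 were at least 2-fold higher in mESCs and 0 in NIH3T3 cells, with a median log2 ratio of 0.30. The count in mESCs lies between the same shares, 9.38% and 23.8%. Of all genes, 20.0% were at least 2-fold higher in NIH3T3 cells. The 3 genes past 2-fold were Ash2l (147 and 30.9 TPM), Wdr5 (100.1 and 35.6 TPM) and Dpy30 (175 and 66.7 TPM). They are named for their values only. Dpy30 was the highest of the list in mESCs, and the methyltransferase gene Kmt2a, with 3.51 TPM, was the lowest. The H2B ubiquitin ligase genes Rnf20 and Rnf40, whose products act with Paf1C, had nearly equal levels, Rnf20 with 20.0 TPM in both libraries and Rnf40 with 13.7 TPM in mESCs and 16.0 TPM in NIH3T3 cells.

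Of the 12 RNAPII subunit genes, Polr2c was at least 2-fold higher in mESCs (70.5 and 32.7 TPM) and Polr2l at least 2-fold higher in NIH3T3 cells (4.42 and 10.6 TPM), and the median was 0.23. Over all genes 23.8% and 20.0% were past 2-fold in these directions. Polr2e was the highest in mESCs with 132 TPM, and Polr2l was the lowest. With TPM summed over transcripts, Polr2c was no longer past 2-fold. The Ski complex genes Skiv2l (15.9 and 21.8 TPM) and Ttc37 (11.3 and 12.0 TPM) had log2 ratios of -0.43 and -0.08, whereas Wdr61, their partner, had 0.76.

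**Figure D3:**
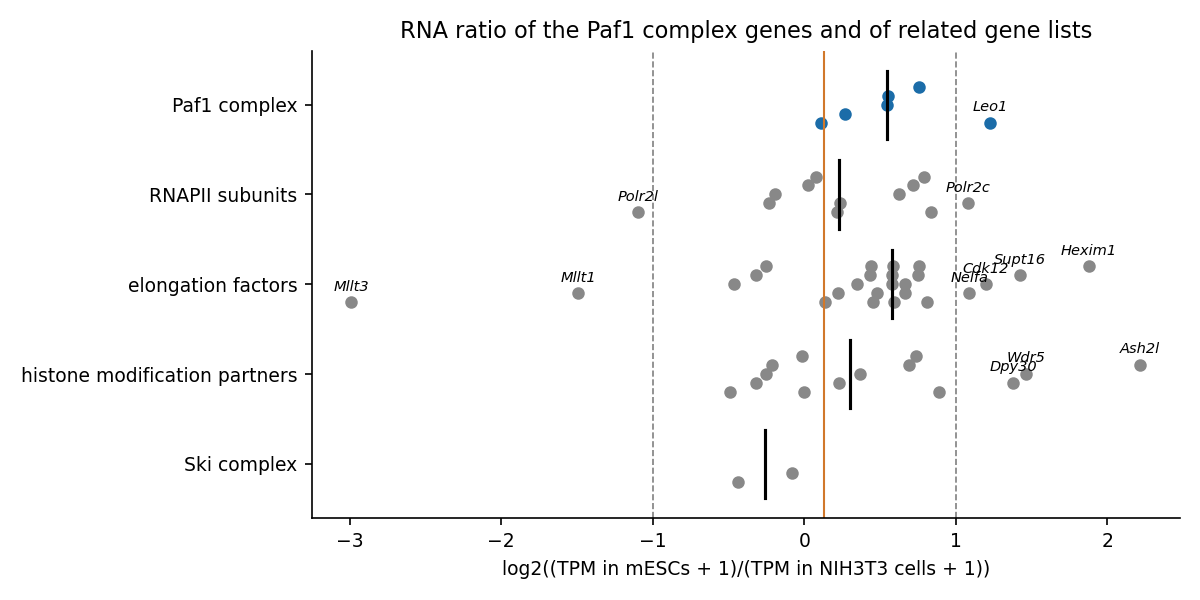
log2 ratio of TPM + 1 in mESCs over NIH3T3 cells for the 6 Paf1C genes (blue) and the genes of the 4 lists (grey), 1 point per gene. Black bars are medians, the orange line is the median of all protein-coding genes (0.13), dashed lines mark 2-fold, and genes past 2-fold are named. The Paf1C median, 0.55, lies near that of the elongation factors, 0.58.

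RefSeq promoter sequences, from 250 bases before to 50 bases after the start (GRCm38.p6), were found for 4 of the 6 genes, Paf1, Leo1, Cdc73 and Rtf1. Their GC content was 54.0% for Paf1, 61.3% for Leo1, 71.3% for Rtf1 and 79.7% for Cdc73, against a median of 52.7% over 32851 promoters. Cdc73 held 54 CpG dinucleotides, Rtf1 held 38, Leo1 held 26 and Paf1 held 14, against a median of 7. Exact matches were counted on both strands. GGGCGG, the GC box, occurred in all 4 promoters and in 35.7% of all promoters, with 5 matches in Rtf1, of which 2 overlap, 2 each in Paf1 and Leo1, and 1 in Cdc73. CCAAT occurred 3 times in Paf1 and in none of the other 3 genes, and in 37.4% of all promoters. Rtf1 also held CCGGAAG (8.86% of promoters) and the NRF1 motif (0.971% of promoters) once each. TATAAA (13.6%) and the YY1 motif (0.633%) had no match in these windows. The bases before the first annotated start are shown for the pair that differed most in these motifs, Paf1 (chr7:28392746-28392950, plus strand) and Rtf1 (chr2:119674818-119675067, plus strand), 5′ to 3′, with CCAAT and GGGCGG on either strand in capitals.
Paf1: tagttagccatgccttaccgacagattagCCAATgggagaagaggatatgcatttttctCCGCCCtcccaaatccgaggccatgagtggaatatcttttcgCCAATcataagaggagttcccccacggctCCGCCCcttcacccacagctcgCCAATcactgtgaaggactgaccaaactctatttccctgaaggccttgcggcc
Rtf1: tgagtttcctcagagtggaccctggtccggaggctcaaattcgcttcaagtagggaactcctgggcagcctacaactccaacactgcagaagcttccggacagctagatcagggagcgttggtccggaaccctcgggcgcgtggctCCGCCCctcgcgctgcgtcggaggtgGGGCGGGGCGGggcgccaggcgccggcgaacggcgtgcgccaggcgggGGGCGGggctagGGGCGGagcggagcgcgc

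Peaks of the 7 lists were counted over each gene body, 1 kb before its start and 5 kb past its end, with an overlap of at least 1 bp. A peak is a stretch with more fragments than the local background, its summit is the base with the most fragments, and its fold enrichment is the pileup at the summit over that background. H3K27ac, the acetylation found at active promoters and enhancers, marked the start of all 6 genes in both cell types. A H3K27ac summit lay within 1 kb of the start of 31.9% of all protein-coding genes in mESCs and 43.8% in NIH3T3 cells, and of 79.8% and 90.6% of genes in the top class, so 6 of 6 is near the share of other highly expressed genes. In mESCs the 6 gene regions held 10 H3K27ac peaks, 8 of them at starts, and in NIH3T3 cells 11, all at starts. The remaining 2 in mESCs were weak peaks inside Leo1 (fold enrichment 2.80, summit 21262 bps from the start) and Rtf1 (3.05, 32510 bps).

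The strongest H3K27ac peak at the start had a higher fold enrichment in NIH3T3 cells at each of the 6 genes, as at 97.8% of the 6600 genes with such a peak in both lists. Ctr9 had 8.58 in mESCs and 18.9 in NIH3T3 cells, Wdr61 had 6.06 and 18.3, and Leo1 had 6.62 and 14.1. Rtf1 had 4.88 and 22.4, Cdc73 had 4.77 and 13.2, and Paf1 had 3.50 and 11.3. The ratio between the lists ran from 2.13 at Leo1 to 4.60 at Rtf1, around the median of 3.02 over all such genes. Fold enrichments of separate libraries depend on depth and background, which the lists do not give. Within each list Paf1 had the weakest start of the 6 genes, below the medians of 5.64 in mESCs and 17.3 in NIH3T3 cells. Cdc73 also lay below both medians, Rtf1 below that of mESCs and Leo1 below that of NIH3T3 cells.

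At Paf1 the H3K27ac signal was split around the promoter printed above. In mESCs 1 peak had its summit at -387 bps from the gene start and the other at 236 bps, and in NIH3T3 cells the summits lay at -399 and 203 bps. The promoter is shared with Med29, a Mediator subunit gene on the opposite strand (14.2 TPM in mESCs and 19.1 TPM in NIH3T3 cells), and the upstream H3K27ac peaks lie over Med29. Between these summits lay that of the only NELFA peak of the 6 genes (chr7:28392646-28393171, fold enrichment 4.28, summit at 64 bps). NELFA is a subunit of NELF, which holds RNAPII at promoters. A NELFA peak was found in the region of 10.4% of all protein-coding genes and 29.4% of those in the top class in mESCs, so 1 of 6 is not apart from the background. This peak also overlaps Med29, and to which gene it belongs cannot be told apart.

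No RNAPII Ser5p and no RNAPII Ser2p peak was called at any of the 6 genes. RNAPII with Ser5p is the form found near starts and with Ser2p the elongating form. Of all protein-coding genes, 12.8% had a Ser5p peak and 6.99% a Ser2p peak, and in the top class the shares were 36.3% and 21.3%. Neither was called at 60.5% of genes in the top class. The Ser5p list held 4490 peaks and the Ser2p list 1675, against 44748 for Ctr9 in mESCs, so the lack of a call does not show that polymerase was absent. On the lists of partner genes, Ser5p peaks were called at 10 of 25 elongation factors, 5 of 14 histone modification partners, 2 of 12 RNAPII subunits and 0 of 2 Ski complex genes.

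Ctr9 peaks were called at all 6 Paf1C genes in mESCs, where 44.1% of all protein-coding genes and 91.9% of those in the top class had one. The regions held 23 peaks covering 14752 bps. Cdc73 had 7 peaks, Paf1 had 6, Wdr61 had 4, Rtf1 had 3, Ctr9 had 2 and Leo1 had 1. The strongest peak of each gene had a fold enrichment of 6.24 at Cdc73, 5.90 at Paf1, 5.56 at Ctr9, 5.26 at Rtf1, 4.21 at Wdr61 and 2.46 at Leo1. Their median of 5.41 lay below the median of 6.58 over genes in the top class with a Ctr9 summit. Leo1 had the fewest peaks, and its strongest was the weakest of the 6. This single peak (−log10 q 2.43) was stronger than only 2.16% of the Ctr9 list.

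In mESCs a Ctr9 summit lay in the 5 kb past the end of all 6 genes, as for 34.9% of all genes and 84.1% of genes in the top class, so the count is near that of other highly expressed genes. Only Cdc73 had a summit within 1 kb of its start (430 bps, fold enrichment 3.71), where 10.8% of all genes and 25.1% of the top class had one. A summit past the end with none at the start was found at 61.1% of the top class. The strongest summit lay 916 bps past the end of Ctr9, 917 bps past the end of Wdr61, 1120 bps past the end of Rtf1 and 2093 bps past the end of Leo1. At Paf1 it lay at -1320 bps and at Cdc73 at -1309 bps from the end, inside the gene. The strongest Ctr9 summit stood downstream of the strongest H3K27ac summit at each of the 6 genes, as at 81.6% of all genes with both kinds of peak and 89.0% of those in the top class, so 6 of 6 is near the background. At Leo1 and Wdr61 the peak with that Ctr9 summit overlaps another gene.

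At 3 of the 6 genes the peaks past the end also overlapped another gene. The 4 Ctr9 peaks of Wdr61 all lie over Dnaja4, a chaperone gene on the opposite strand that shares 1581 bps with Wdr61 and had 0.239 TPM in mESCs and 1.03 TPM in NIH3T3 cells. The annotated end of Wdr61 is that of Wdr61-202, which was listed at 0 TPM in mESCs, and from the end of the abundant Wdr61-203 the strongest summit lay at 3346 bps. The 3 peaks past the end of Paf1 lie over Samd4b, which runs towards Paf1 on the opposite strand (11.6 TPM in mESCs and 23.5 TPM in NIH3T3 cells) and carried 22 Ctr9 peaks in mESCs and 0 in NIH3T3 cells. The Leo1 peak (chr9:75468523-75468780) overlaps the start of the pseudogene Gm7972, which had 5.56 TPM in mESCs and 0.263 TPM in NIH3T3 cells. At these sites the neighbouring genes cannot be told apart from the Paf1C genes. The other protein-coding neighbour, B3galt2 within Cdc73, was listed at 0 TPM in both libraries and held no Ctr9 peak. Counting only peaks free of other genes left 3 of 6 genes with a Ctr9 peak past the end in mESCs, Ctr9, Cdc73 and Rtf1, as for 51.1% of the top class.

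In NIH3T3 cells Ctr9 peaks were called at 4 of the 6 genes, against 25.8% of all genes and 65.8% of the top class. Rtf1 had 4 peaks, Cdc73 and Paf1 had 3 each, Ctr9 had 1, and Leo1 and Wdr61 had none. They numbered 11 and covered 6573 bps. A summit past the end was found at 3 genes, Ctr9, Cdc73 and Rtf1, against 16.1% of all genes and 48.3% of the top class. Paf1 was the only gene with a Ctr9 summit within 1 kb of its start (540 bps, fold enrichment 3.08), where 10.7% of all genes and 29.0% of the top class had one, and the peak behind it was the widest of the list of 11, at 2250 bps. The strongest peaks had a fold enrichment of 5.77 at Paf1, 4.78 at Cdc73 (2 peaks of equal strength), 4.58 at Rtf1 and 4.18 at Ctr9. On the lists of partner genes, Ctr9 peaks were called in mESCs and in NIH3T3 cells at 23 and 20 of 25 elongation factors, 13 and 9 of 14 histone modification partners, 12 and 5 of 12 RNAPII subunits, and 2 and 0 of 2 Ski complex genes. The shares in mESCs, 44.1% of all genes and 91.9% of the top class, are those given above.

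Leo1 and Wdr61 had Ctr9 peaks in mESCs but not in NIH3T3 cells. All of their mESC peaks overlap other genes, the Leo1 peak Gm7972 and the 4 Wdr61 peaks Dnaja4, and the Leo1 peak does not reach a −log10 q of 5. Counting only peaks free of other genes, 4 of 6 genes had a Ctr9 peak in mESCs (35.3% of all genes and 79.2% of the top class by the same rule) and 4 of 6 in NIH3T3 cells (19.5% and 54.2%). Genes with a Ctr9 peak in mESCs and none in NIH3T3 cells made up 26.8% of the 2740 genes in the top class of both libraries, to which 5 members belong. The mESC list was the longer one, with 44748 peaks against 22016. Of the 23 mESC peaks, 7 overlapped a NIH3T3 peak, at Cdc73, Paf1 and Rtf1. Over all Ctr9 peaks in mESCs, wherever they lie, the share was 17.8%. It was not computed for peaks at highly expressed genes alone, so the count is not read against it. At Ctr9 itself no peak was shared, the NIH3T3 summit lying 2930 bps past the end. At Rtf1 the shared peaks lay past the end, with summits at 1120 and 1625 bps in mESCs and at 1007 and 1540 bps in NIH3T3 cells. At Paf1 they lay in the body, with mESC summits at 3524 and 5117 bps and NIH3T3 summits at 3146 and 5027 bps from the start.

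**Figure D4:**
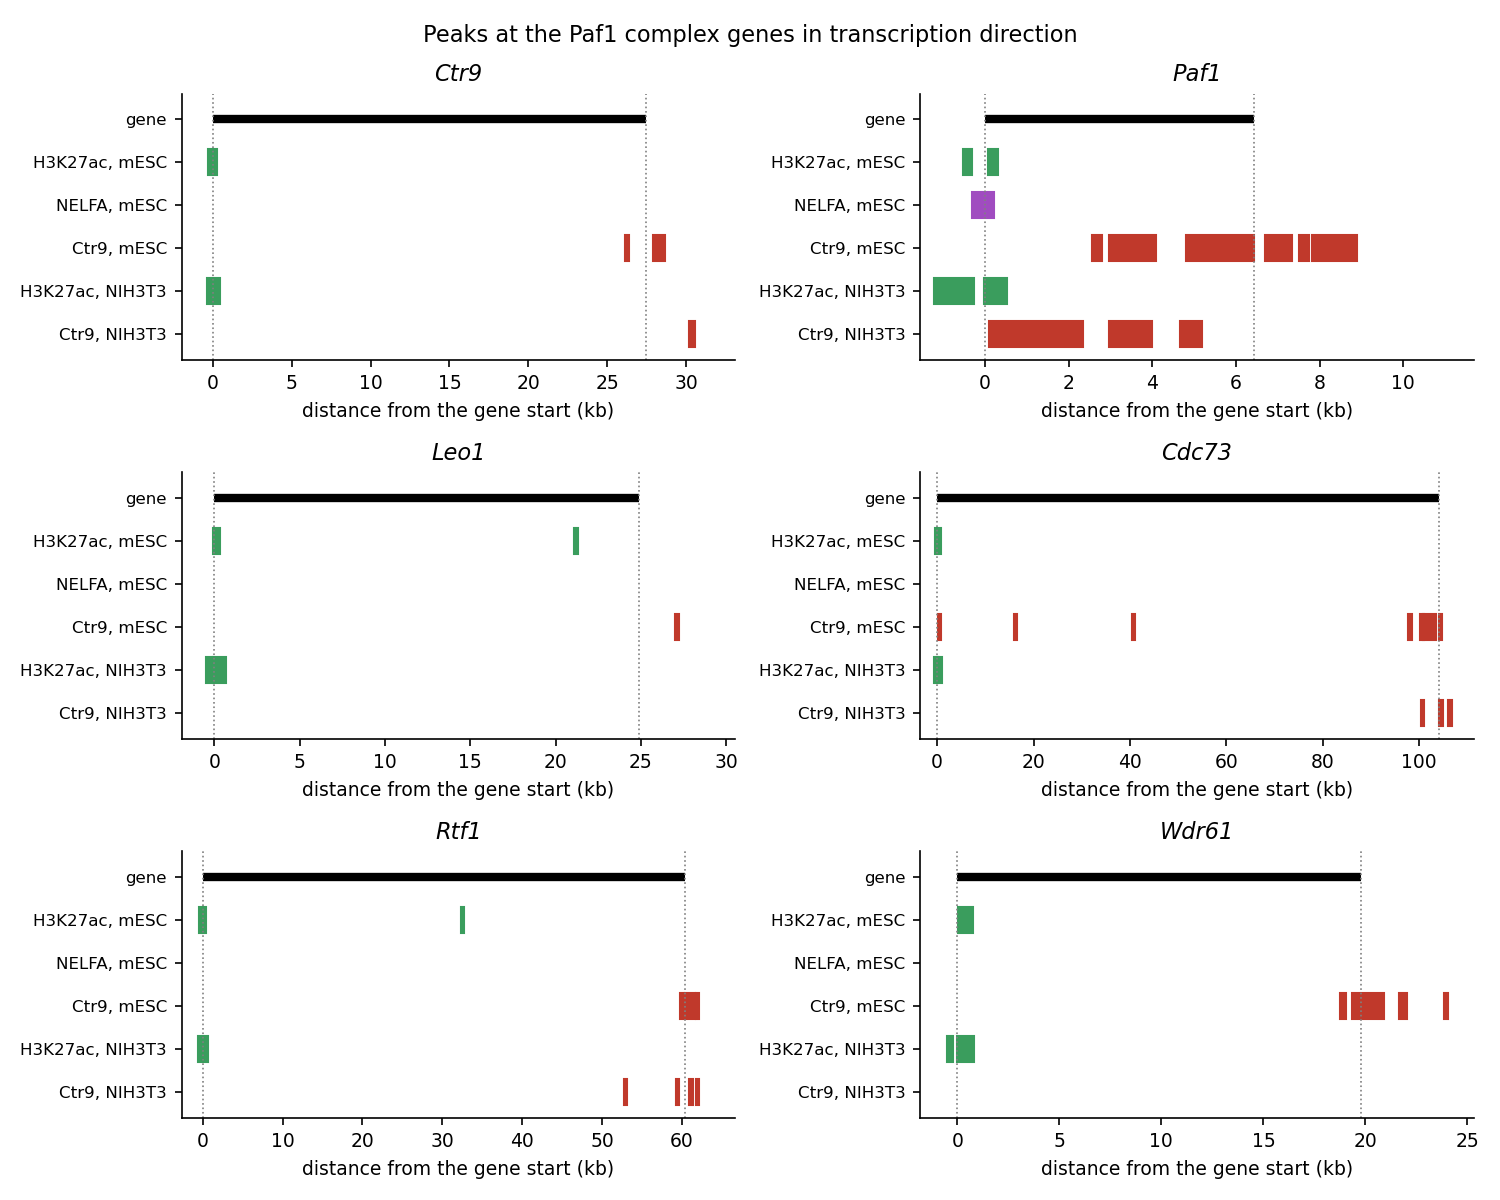
Peaks in the region of each Paf1C gene, drawn in the direction of transcription by distance from the gene start in kb, with the gene body as a black bar and dotted lines at its start and end. H3K27ac peaks are green, the NELFA peak is purple and Ctr9 peaks are red; peaks too narrow to see were widened, and no RNAPII Ser5p or Ser2p peak was called. H3K27ac lies at every start, and Ctr9 in mESCs lies at or past every end.

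**Figure D5:**
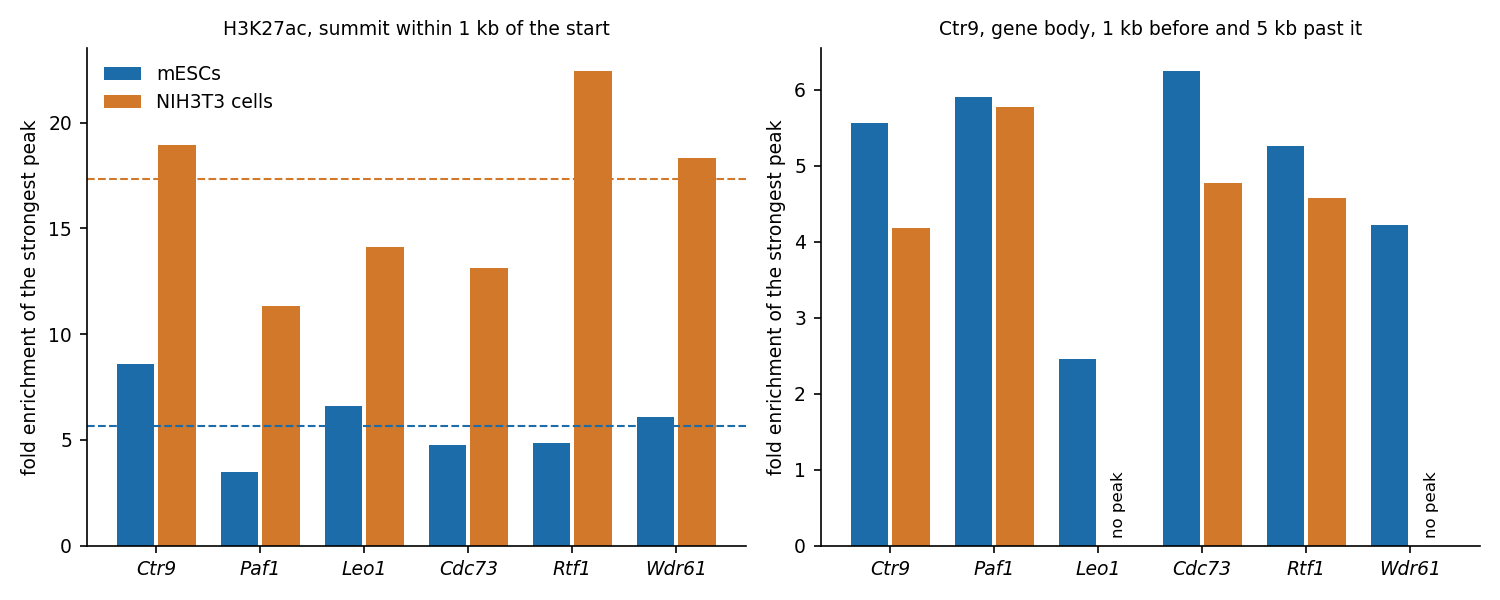
Fold enrichment of the strongest H3K27ac peak at the start (left) and of the strongest Ctr9 peak in the region (right) for each Paf1C gene in mESCs (blue) and NIH3T3 cells (orange), 1 library each. Dashed lines are medians over genes with a H3K27ac summit at the start in both lists (5.64 and 17.3). The H3K27ac fold enrichment is higher in the NIH3T3 list at all 6 genes, as at 97.8% of all such genes, and no Ctr9 peak was called at Leo1 and Wdr61 in NIH3T3 cells.

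The Ctr9 gene was itself altered in the lines used for Ctr9 ChIP-seq, so the tag site was placed on the genome. The guide used for tagging matched chromosome 7 once, at chr7:111055764-111055783 on the plus strand (GRCm38), in exon 25 of the 25 exons of Ctr9-201. Its last base is the first base of the stop codon (chr7:111055783-111055785). The guide is shown with its PAM in capitals.
Ctr9 guide: tgggtcagatgatagcgactAGG

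The primers for the donor placed the upstream homology arm at chr7:111054959-111055781 (823 bps) and the end of the downstream arm at position 111056586. The forward primer of the downstream arm did not match the genome exactly, so its start was assumed to be the stop codon, which gives chr7:111055783-111056586 (804 bps). The weaker Ctr9 peak at Ctr9 in mESCs (chr7:111055080-111055320, fold enrichment 3.06) lay inside the upstream arm with all of its 241 bps. The stronger peak (chr7:111056839-111057631, 5.56) began 253 bps past the downstream arm, and the NIH3T3 peak (4.18) began 2532 bps past it. No peak of the NIH3T3 Ctr9 list and none of the H3K27ac, NELFA, Ser5p or Ser2p lists lay over the arms. The part of donor sequence in the peak within the arm was not tested, and without it Ctr9 still had a peak past its end.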

How the data were processed

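Of 12 samples, 9 had a processed file and were used, with 1 library per group; the 3 inputs had none. ChIP-seq fragments had been mapped to mm10 by the authors (Bowtie2 2.3.5.1, per the submitters' processing notes); after blacklist filtering, MACS2 2.2.6 gave the peaks, cut at a q-value of 0.01. The deposited lists give a fold enrichment (a ratio to local background), −log10 p, −log10 q and a score derived from q; the methods state a target number of ChIP-seq reads, but the depth reached is not in the lists. For RNA-seq the authors used kallisto 0.46.1 on GENCODE M19, and the deposited values are estimated counts and TPM per transcript.

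Genes and transcripts were placed with GENCODE M21 (mm10). Computations used Python 3.11.15, pandas 2.3.3, NumPy 2.4.6, SciPy 1.17.1 and Matplotlib 3.10.9, and code was tested on simulated data. A pseudocount of 1 TPM was added for ratios. Background shares cover protein-coding genes, those with at least 1 TPM in either library for RNA ratios. Named were the members, genes of each list past 2-fold or with the highest or lowest TPM in mESCs, protein-coding neighbours, the nearest gene by level and the markers; Rnf20, Rnf40 and Gm7972 were named besides, after their values were seen. The members, lists and rules were chosen with earlier results of these data known. The alternatives changed the transcript taken, pseudocount, filter, scaling, peak threshold, window and overlap rule; 16 were planned and 6 were added after seeing the data.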

Additional observations from a re-analysis of the deposited data

How the results depend on the processing

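No paired analysis was possible because each group is 1 library, and no replicate could be left out. Of 108 values recomputed under an alternative, 92 stayed within their limit (counting error for levels, 1.5 times for counts). Some could not move, such as the RNAPII Ser5p and Ser2p counts of 0 under stricter peak rules. A fall from 6 to 4 genes with a Ctr9 peak in mESCs, counting only peaks free of other genes, was within the limit. The total is therefore no measure of robustness. The median level of the Paf1C genes was 73.2 TPM in mESCs and 44.4 TPM in NIH3T3 cells with transcripts summed, and 35.6 and 28.6 TPM with the most abundant coding transcript, a choice made after seeing the data. Without a filter on TPM, 13.5% of all genes were at least 2-fold higher in mESCs. With the median of all genes set to 0, each log2 ratio fell by the same shift, Leo1 to 1.09 and Rtf1 to -0.02, and 5 members stayed higher in mESCs. Leo1 was the only member past 2-fold under each alternative. Counting only peaks that overlap no other gene, also chosen after seeing the data, left 0 genes with a NELFA peak and 3 with a Ctr9 peak past the end in mESCs. With transcripts summed, 0 RNAPII subunits were at least 2-fold higher in mESCs. RNA-seq depth limits the order of members with overlapping intervals, and the division of reads between transcripts that share exons limits it further. The ChIP-seq depth reached is not in the lists, and its part in the lack of RNAPII peaks was not tested.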
